A study of Homo sapiens with 8 samples.

Results

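The clustered histone genes encode the linker and core histones that are made in bulk when DNA is copied. They were examined in LNCaP cells, a human prostate carcinoma line of metastatic origin, by RNA sequencing. Members were the protein-coding genes of the deposited count table that carry a systematic name of the H1-1 to H1-6, H2AC, H2BC, H3C or H4C series or the name H2AW, and that had at least 10 counts in at least 2 of the 8 libraries. By this rule 47 of the 36474 genes in the table were members, out of 58 that carry such a name. The other 11 had at most 15 counts in any library, and their values near the rule were low. H2AC21, just inside it, had 1 to 11 counts, and H2AC12, just outside it, had 0 to 10.

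All libraries came from LNCaP cells that had been starved in medium without serum or calcium. Recombinant asporin (ASPN), a small leucine-rich protein of the extracellular matrix, was used at 100 ng/mL. RNA was collected at 0 h of ASPN (2 libraries, one of them without a usable replicate number), after 12 h (3 libraries) and after 24 h (3 libraries). Libraries of cells kept for 12 or 24 h without ASPN are not analysed here. The effects of ASPN and of time in the medium cannot be told apart. The labels call the libraries biological replicates, and the study's methods state that cells were plated in wells. The p-values therefore measure the spread between such cultures of 1 line.

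Histone octamers of H2A, H2B, H3 and H4 wrap DNA into nucleosomes, and H1 binds the linker DNA between them. The clustered genes lie in a few dense arrays, have no introns in their classical form and are transcribed mostly in S phase, under NPAT and, for H2B genes, the octamer-binding factor POU2F1. Their mRNAs are the best known ones that end in a conserved stem-loop rather than in a poly(A) tail. SLBP binds that stem-loop through cleavage, export and translation, and the mRNA is degraded quickly once DNA synthesis stops. In many differentiated or resting cells a few clustered genes are also read through to a downstream polyadenylation site.

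The stem-loop is shown first, because it marks the normal 3′ end of these transcripts. The annotated gene interval also stops there for some members and runs on for others. The search pattern of 16 bases, read in the sense direction, was GG, 2 free bases, CTT, 1 free base, T, 1 free base, A, 3 free bases and CC. It was found within 300 bases after the stop codon of 47 of 47 members, starting 22 to 67 bases (median 35) from the stop. Outside the named clustered genes, 20 of 17476 protein-coding genes (0.114%) held the pattern in that window. In the members it occurred in 7 forms. One form was shared by 27 members of the H1, H2A, H2B and H3 families and another by 7 members of the H1, H2A and H2B families. H4 genes had 2 forms of their own, in 6 and 4 members. H3C6, H2AC11 and H2AC20 each had a form found in no other member. The lines below give 1 member of each form in that order, read from GRCh38 5′ to 3′ with the stem-loop in capitals and its position in parentheses.
H2BC21 (chr1:149886188-149886203, minus strand): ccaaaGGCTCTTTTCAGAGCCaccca
H2BC12 (chr6:27146366-27146381, minus strand): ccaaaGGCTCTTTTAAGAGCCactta
H4C8 (chr6:26285131-26285146, minus strand): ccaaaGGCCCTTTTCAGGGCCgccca
H4C9 (chr6:27139654-27139669, plus strand): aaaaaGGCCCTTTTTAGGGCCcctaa
H3C6 (chr6:26225596-26225611, plus strand): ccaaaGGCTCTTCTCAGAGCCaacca
H2AC11 (chr6:27133515-27133530, plus strand): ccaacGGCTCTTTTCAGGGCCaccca
H2AC20 (chr1:149887391-149887406, plus strand): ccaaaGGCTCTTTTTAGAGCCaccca

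The members lie on GRCh38 in 2 arrays and at 1 single locus. The array at 6p22 held 37 members between positions 26020451 and 27893891 of chromosome 6, and the array at 1q21 held 9 members between positions 149782689 and 149887965 of chromosome 1. H2AW lies alone at 1q42. By family there were 5 H1, 13 H2A, 13 H2B, 6 H3 and 10 H4 genes. The 10 H4 genes translate to 1 identical protein of 103 residues although they have 8 different coding sequences. Of the 6 H3 genes 5 encode the same protein, while the H2A and H2B genes encode 8 and 10 distinct proteins that are at least 93.8% and 96.0% identical within the family. The 5 H1 proteins all differ, with pairwise identities from 48.4% to 86.4%.

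Promoter sequences from the RefSeq table (GRCh38.p14, 250 bases before to 50 after the start) were matched by symbol for 44 of 47 members. The box CCAAT, searched on both strands, was present in 36 of them (81.8%) against 35.7% of all 27305 promoters. The box TATAAA was in 32 (72.7%) against 11.95%, and the octamer ATTTGCAT in 19 (43.2%) against 1.8%. The octamer was found in 10 of 13 H2B and 9 of 12 H2A promoters and in none of the H1, H3 and H4 promoters searched. Windows of neighbouring H2A and H2B genes that face each other can overlap, so the same octamer can count for both. A match is a description of the letters and was not tested as a binding site. The next lines give the 150 bases before the RefSeq start for the 3 members that had an adjusted p of at most 0.05 between 24 h and 12 h, with these 3 motifs in capitals. The octamer began 46, 130 and 48 bases before the start in H2BC21, H2AC6 and H2BC8, on the opposite strand in H2AC6, and the TATAAA box began 30, 31 and 32 bases before it.
H2BC21 (chr1:149886683-149886832, minus strand): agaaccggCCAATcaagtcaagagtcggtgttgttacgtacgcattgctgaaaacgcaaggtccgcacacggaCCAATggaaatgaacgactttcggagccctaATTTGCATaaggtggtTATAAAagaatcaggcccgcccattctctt
H2AC6 (chr6:26124022-26124171, plus strand): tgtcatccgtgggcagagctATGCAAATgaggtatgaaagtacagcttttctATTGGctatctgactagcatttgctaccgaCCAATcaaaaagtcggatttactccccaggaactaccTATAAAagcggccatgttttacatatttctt
H2BC8 (chr6:26216689-26216838, minus strand): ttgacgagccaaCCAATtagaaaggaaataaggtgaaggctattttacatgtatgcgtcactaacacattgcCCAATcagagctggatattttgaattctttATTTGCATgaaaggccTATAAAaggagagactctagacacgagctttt

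Library totals ran from 73406825 to 96962135 counts, and the members took 0.0504% to 0.056% of them. The LNCaP markers KLK3 and FOLH1 were at 912 to 1390 and 1660 to 1980 CPM (counts per 1000000 counts of the TMM-scaled library). Of 16 markers of fibroblasts, leukocytes, endothelium and basal epithelium, 14 were in the table and 8 of these had at most 7 counts in every library, among them PTPRC, CD3E, PECAM1 and ASPN itself. COL1A1 and VWF were present at 18.9 to 21.3 and 11.2 to 17.3 CPM. The summed level of the 14 was 37.7 to 39.8 CPM at 0 h, 36.4 to 38.7 at 12 h and 32.7 to 35.1 at 24 h, and its part in the results was not tested.

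A few members supplied most of the counts. H2BC21, an H2B gene of the 1q21 array, had a mean of 10340 counts per library and 23.0% of all member counts, H1-2 had 6725 counts (14.9%) and H2BC12 had 4342 counts (9.64%). The 10 most counted members held 84.9% of the total. At the other end H1-3 had a mean of 5.62 counts, and 24 of the 47 members had a mean under 100 counts per library. Summed by family, H2B genes held 46.1% of the member counts, H2A genes 20.8%, H1 genes 15.1%, H4 genes 9.47% and H3 genes 8.47%. These shares follow gene length as well as abundance.

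**Figure D1:**
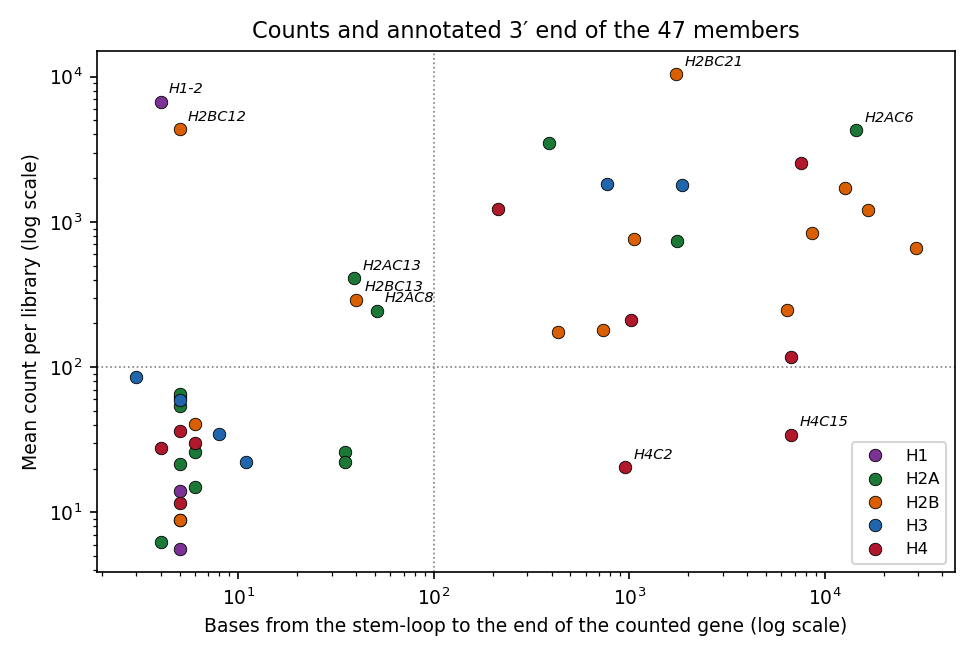
Mean count per library (y, log scale) of the 47 members against the bases between the stem-loop and the 3′ end of the gene interval (x, log scale). Colors mark the family, and dotted lines lie at 100 bases and 100 counts. Of the 20 members to the right of the line 18 lie above 100 counts, and of the 27 to the left 5 do, led by H1-2 and H2BC12.

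The counts moved with the annotated 3′ end. In 20 members the gene interval in the deposited table reached 212 bases or more past the stem-loop, and in the other 27 it ended at most 51 bases after it. The median of the mean counts was 795 in the first set and 30.0 in the second, and a mean of at least 100 counts was reached by 18 of 20 and 5 of 27. H2BC15 reached 16604 bases past its stem-loop, H2AC6 14432, H2BC21 1729 and H2BC8 1059. H1-2 and H2BC12 were the clearest exceptions, since their intervals ended 4 and 5 bases after the stem-loop and only H2BC21 had more counts. The interval is not the length of exon: that of H2AC6 spans 14972 bases, with 1668 exon bases in GENCODE 44. For H2BC8, H2AC11, H4C2, H4C5, H2BC7 and H4C9, which are among the 20, no GENCODE 44 transcript ended more than 18 bases past the stem-loop. The libraries were made with a TruSeq mRNA kit, a type that captures poly(A) tails. The deposited table does not tell reads of stem-loop ended transcripts from reads of polyadenylated ones, and the part of the library type in these counts was not tested.

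Levels can be compared between genes only per length, which was possible for the 27 members whose gene model is the same in the table and in GENCODE 44. H2BC21, the most counted member, and H2AW, H3C10, H2BC5 and H4C9 are not among them. The order below therefore holds only within the 27. The length is that of the exons of all annotated transcripts of a gene together. It is 1668, 2163 and 2679 bases for H2AC6, H4C8 and H3C6, against 731 for H1-2 and 495 for H2BC12. The order thus also depends on which transcripts the reads come from, which was not resolved. H1-2 was at 113, 111 and 105 CPM per kilobase of exon at 0, 12 and 24 h, and H2BC12 at 100.0, 104 and 107. Their libraries overlapped, with 103 to 115 for H1-2 and 90.5 to 120 for H2BC12. H2AC6 followed at 26.9 to 33.8, then H4C8 at 11.9 to 15.1 and H3C6 at 7.28 to 8.58, each apart from its neighbours among the 27. The remaining 22 of the 27 had means of 0.0842 to 2.78 CPM per kilobase. They were led by H2BC11 at 2.38 to 3.04, H3C13 at 1.38 to 2.54 and H2AC20 at 0.772 to 2.37. There the library ranges of neighbours in this order overlapped.

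**Figure D2:**
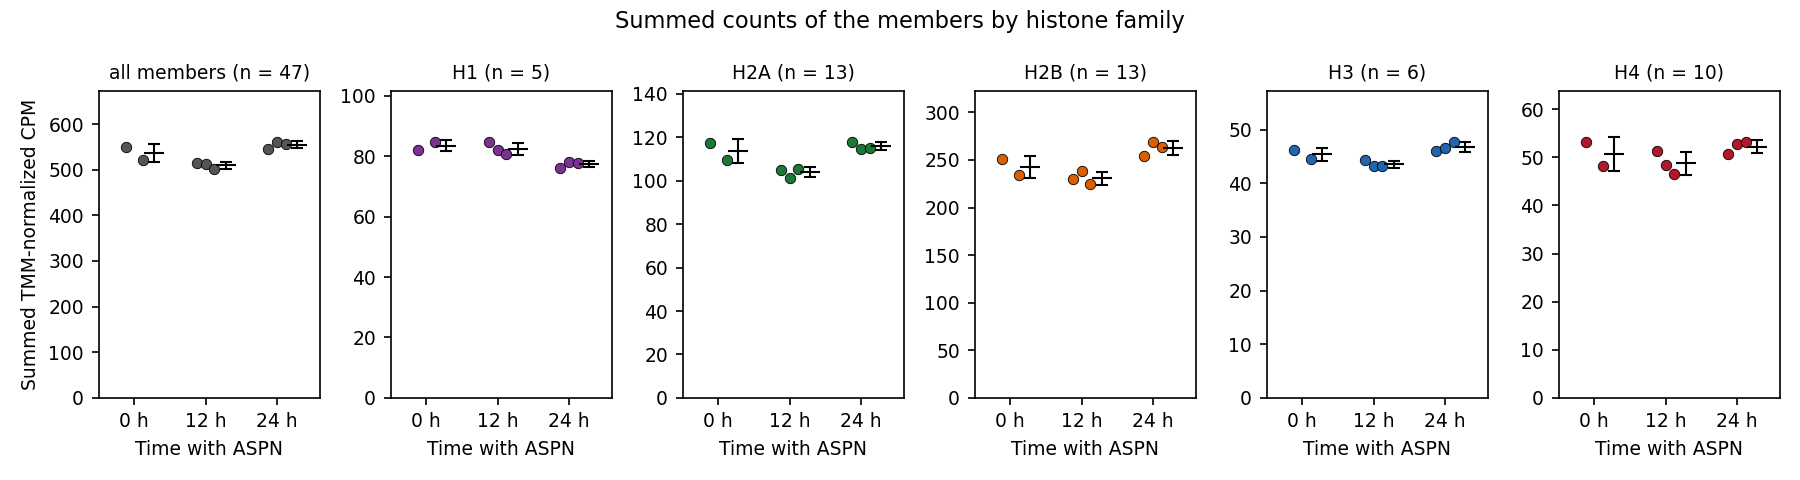
Summed TMM-normalized CPM of all members and of each family (y, from 0) at 0, 12 and 24 h, with 1 point per library and the mean ± SD beside it. All-member sums lie between 500.6 and 561.4 CPM, and the 24 h points of H1 are the lowest of their panel while those of H2A and H2B lie above all 12 h points.

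Summed over all 47 members, the level was 535.8 ± 19.9 CPM (SD, n = 2) at 0 h, 509.5 ± 7.82 CPM (SD, n = 3) at 12 h and 554.7 ± 8.19 CPM (SD, n = 3) at 24 h. All 12 h libraries lay below both time-0 libraries and all 24 h libraries lay above the 12 h ones, while 0 h and 24 h overlapped. The log2 ratios of the means were -0.07 at 12 h and 0.05 at 24 h against 0 h, and 0.12 between 24 h and 12 h. H2B genes summed to 242.6 ± 11.6, 230.9 ± 6.80 and 262.4 ± 7.32 CPM and H2A genes to 113.6 ± 5.45, 103.9 ± 2.33 and 115.9 ± 1.77 CPM. H2B libraries at 0 h and 12 h overlapped. Within these sums H2BC21, an H2B gene, had means of 117.5, 111.3 and 136.1 CPM. H2AC6, an H2A gene, had 51.23, 45.34 and 55.37 CPM. The H2B, H2A and all-member sums between 12 h and 24 h therefore reflect these genes in large part. The H1 sum went the other way at 24 h, from 83.53 ± 1.83 and 82.53 ± 2.01 to 77.39 ± 0.988 CPM. H3 genes summed to 45.38 ± 1.16, 43.55 ± 0.625 and 46.76 ± 0.914 CPM, and every 12 h library lay below all libraries of the other time points. H4 genes summed to 50.64 ± 3.54, 48.73 ± 2.37 and 52.25 ± 1.31 CPM, with overlapping libraries in each comparison. H3 and H4 sums lay between 43.16 and 47.75 and between 46.55 and 53.25 CPM per library. In a bulk sample, a change in the share of cells in S phase and a change in histone mRNA per cell cannot be told apart.

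The libraries at 12 h were first set against time 0. By edgeR's quasi-likelihood test, 1 of the 46 tested members had an adjusted p of at most 0.05, and it fell. That is 2.17% of the members, where 11.6% of all 21071 genes tested passed, 4.85% higher and 6.75% lower. No member was also past 1.5-fold, against 1.05% of all genes. At an unadjusted p under 0.05 there were 7 members (15.2%, against 23.5% of all genes), and DESeq2 passed 1 member and called 0 at 1.5-fold. The median log2 change of the members was -0.05, with 28 of 46 negative, beside -0.0007 over all genes. Groups did not overlap in 11 members (23.9%) and in 36.9% of all genes. For 20 members the 95% interval of the log2 change lay within 1.5-fold in either direction.

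The member that passed at 12 h was H2AC6 (ENSG00000180573.10, chromosome 6, 26124145 to 26139116), which encodes a canonical H2A. It was at 53.1 and 49.4 CPM in the time-0 libraries and at 45.4, 44.9 and 45.7 CPM at 12 h. All 3 libraries at 12 h lay below both time-0 libraries, and edgeR gave a log2 difference of -0.18 with an SE of 0.053 and an adjusted p of 0.0241. The adjusted p was 0.385 without time-0 replicate 1, 0.0634 without 12 h replicate 3, 0.0536 without 24 h replicate 2, 0.0792 in the fit to the compared time points and 0.156 after GC and length correction, with a range of 0.0115 to 0.385 over the alternatives. Without the time-0 library that has no number 4 members passed, all lower: H2AC6 with H2BC5, H2BC13 and H2BC15. H2BC13 was at 4.93 CPM in time-0 replicate 1, at 3.31 in the other time-0 library and at 2.63, 3.11 and 3.54 at 12 h, which overlap. Without that library it was past 1.5-fold too, at -0.66 (adjusted p 0.0115, range over the alternatives 0.0115 to 0.883), and without time-0 replicate 1 it was at -0.10 (adjusted p 0.883). H2BC5, an H2B gene, was next by p in the full set at 21.41 ± 1.26 CPM (SD, n = 2) and 18.62 ± 0.656 CPM (SD, n = 3), with a log2 change of -0.20 (SE 0.069, adjusted p 0.0554, within 0.046 to 0.511). H2BC6 and H2BC13, with changes of -0.42 each (adjusted p 0.138 and 0.0846), had the lowest values among members with at least 100 counts, and 28.2% of the exon bases of H2BC6 overlap a gene on the other strand.

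The libraries at 24 h were then set against the same 2 time-0 libraries. Here 2 of 46 members (4.35%) passed an adjusted p of 0.05 by edgeR, 1 higher and 1 lower, where 16.3% of all genes passed, 7.82% higher and 8.49% lower. No member passed 1.5-fold as well, against 2.45% of all genes. At an unadjusted p under 0.05 there were 7 members (15.2%, against 27.3% of all genes), and DESeq2 passed 2 and called 0. The median log2 change was -0.0015, with 23 members positive and 23 negative, beside -0.0031 over all genes. Groups did not overlap in 14 members (30.4%) and in 43.2% of all genes. Without the time-0 library that has no number 3 members passed, H2BC13 being the added one. Its log2 change of -0.33 (adjusted p 0.166) was then -0.58 (adjusted p 0.0231, range 0.0231 to 0.984), and it was -0.01 without time-0 replicate 1 (adjusted p 0.984). Without 24 h replicate 2 or 3 only 1 member passed.

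H2BC21 (ENSG00000184678.10, chromosome 1, 149884459 to 149886652) encodes an H2B that is known to be expressed outside S phase as a polyadenylated mRNA. It was at 122 and 113 CPM at 0 h, at 109, 114 and 111 CPM at 12 h and at 135, 135 and 138 CPM at 24 h. Every 24 h library lay above every other library. Against 0 h it rose 1.157-fold, a log2 difference of 0.21 with an SE of 0.047 (edgeR adjusted p 0.00161, range over the alternatives 5.71e-06 to 0.0418). H2BC15 (ENSG00000233822.5, chromosome 6, 27837760 to 27855709), an H2B gene of the 6p22 array, fell. Its levels were 17.3 and 14.3 CPM at 0 h, 13.6, 15.0 and 13.9 at 12 h and 13.1, 13.2 and 13.5 at 24 h. The 24 h libraries lay below all others, but the time-0 libraries were far apart. The log2 change was -0.25 (SE 0.082, adjusted p 0.0299 by edgeR). It was -0.11 without time-0 replicate 1 (adjusted p 0.615) and -0.18 after GC and length correction (adjusted p 0.0805), and the adjusted p was 0.0945, 0.0792 and 0.0588 when 24 h replicate 1, 2 or 3 was left out. Its range over the alternatives was 0.00459 to 0.615.

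Last, 24 h was set against 12 h, both with ASPN. Here 3 of 46 members (6.52%) passed an adjusted p of 0.05 by edgeR, and all 3 were higher, where 2.72% of all genes passed, 1.12% higher and 1.61% lower. No member passed 1.5-fold, against 0.18% of all genes. At an unadjusted p under 0.05 there were 9 members (19.6%, against 13.6% of all genes), and DESeq2 passed 3 and called 0. The median log2 change was 0.08, with 27 members positive, beside 0.0035 over all genes. Groups did not overlap in 11 members (23.9%) and in 19.6% of all genes. The 22 members whose 95% interval lay within 1.5-fold all had a mean of at least 100 counts, which 23 members reached. Of these 23 members 3 passed an adjusted p of 0.05, where 4.16% of all genes with such a mean did.

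**Figure D3:**
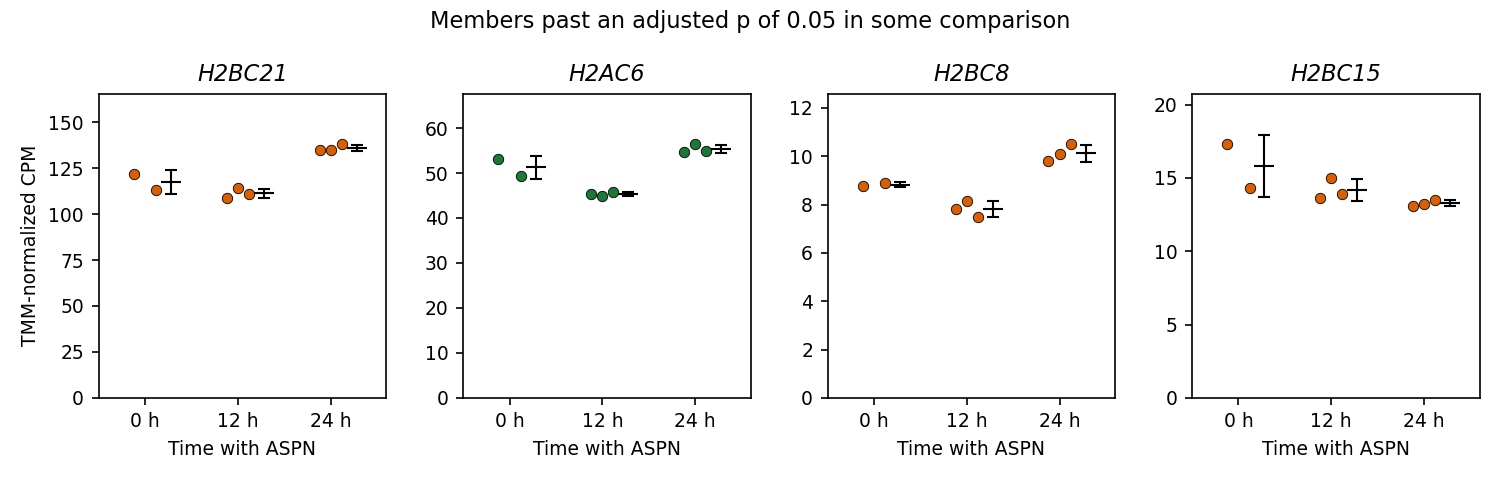
TMM-normalized CPM (y, from 0) of the 4 members past an adjusted p of 0.05 in some comparison, with 1 point per library at 0, 12 and 24 h and the mean ± SD beside it. H2BC21, H2AC6 and H2BC8 are highest in every 24 h library, and H2BC15 is lowest there, with its time-0 libraries at 17.3 and 14.3 CPM.

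H2BC21 rose from 111.3 ± 2.44 to 136.1 ± 1.54 CPM (SD, n = 3 each) between 12 h and 24 h. The log2 difference was 0.29 with an SE of 0.042 (edgeR adjusted p 6.8e-05, range over the alternatives 1.32e-09 to 0.00273). H2AC6 rose from the 12 h values given above to 54.7, 56.4 and 55.0 CPM, which is 0.29 on the log2 scale with an SE of 0.047 (edgeR adjusted p 0.000376, range 4.4e-07 to 0.0112). Its 24 h libraries lay above both time-0 libraries too, but the change from 0 h was 0.11 (SE 0.053, adjusted p 0.161). After GC and length correction that change was 0.21 (adjusted p 0.00049, range 0.00049 to 0.557). H2BC8 (ENSG00000273802.2, chromosome 6, 26215159 to 26216692), an H2B gene of 6p22, was at 8.75 and 8.89 CPM at 0 h, at 7.82, 8.15 and 7.50 at 12 h and at 9.80, 10.1 and 10.5 at 24 h. No groups overlapped, and from 12 h to 24 h H2BC8 rose by 0.38 on the log2 scale with an SE of 0.081 (edgeR adjusted p 0.0064). The adjusted p was 0.0552 when 12 h replicate 3 was left out and 0.0535 when 24 h replicate 3 was, with a range of 0.000362 to 0.0552. All 4 members that passed in some comparison are H2A or H2B genes with the commonest stem-loop form. All 4 have a gene interval that runs over 100 bases past the stem-loop, and all 4 have a mean of at least 100 counts. Among all 47 members, 13 are H2A and 13 are H2B genes, 27 have that form, 20 have such an interval and 23 reach that mean. Whether the 4 differ from these shares was not tested.

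**Figure D4:**
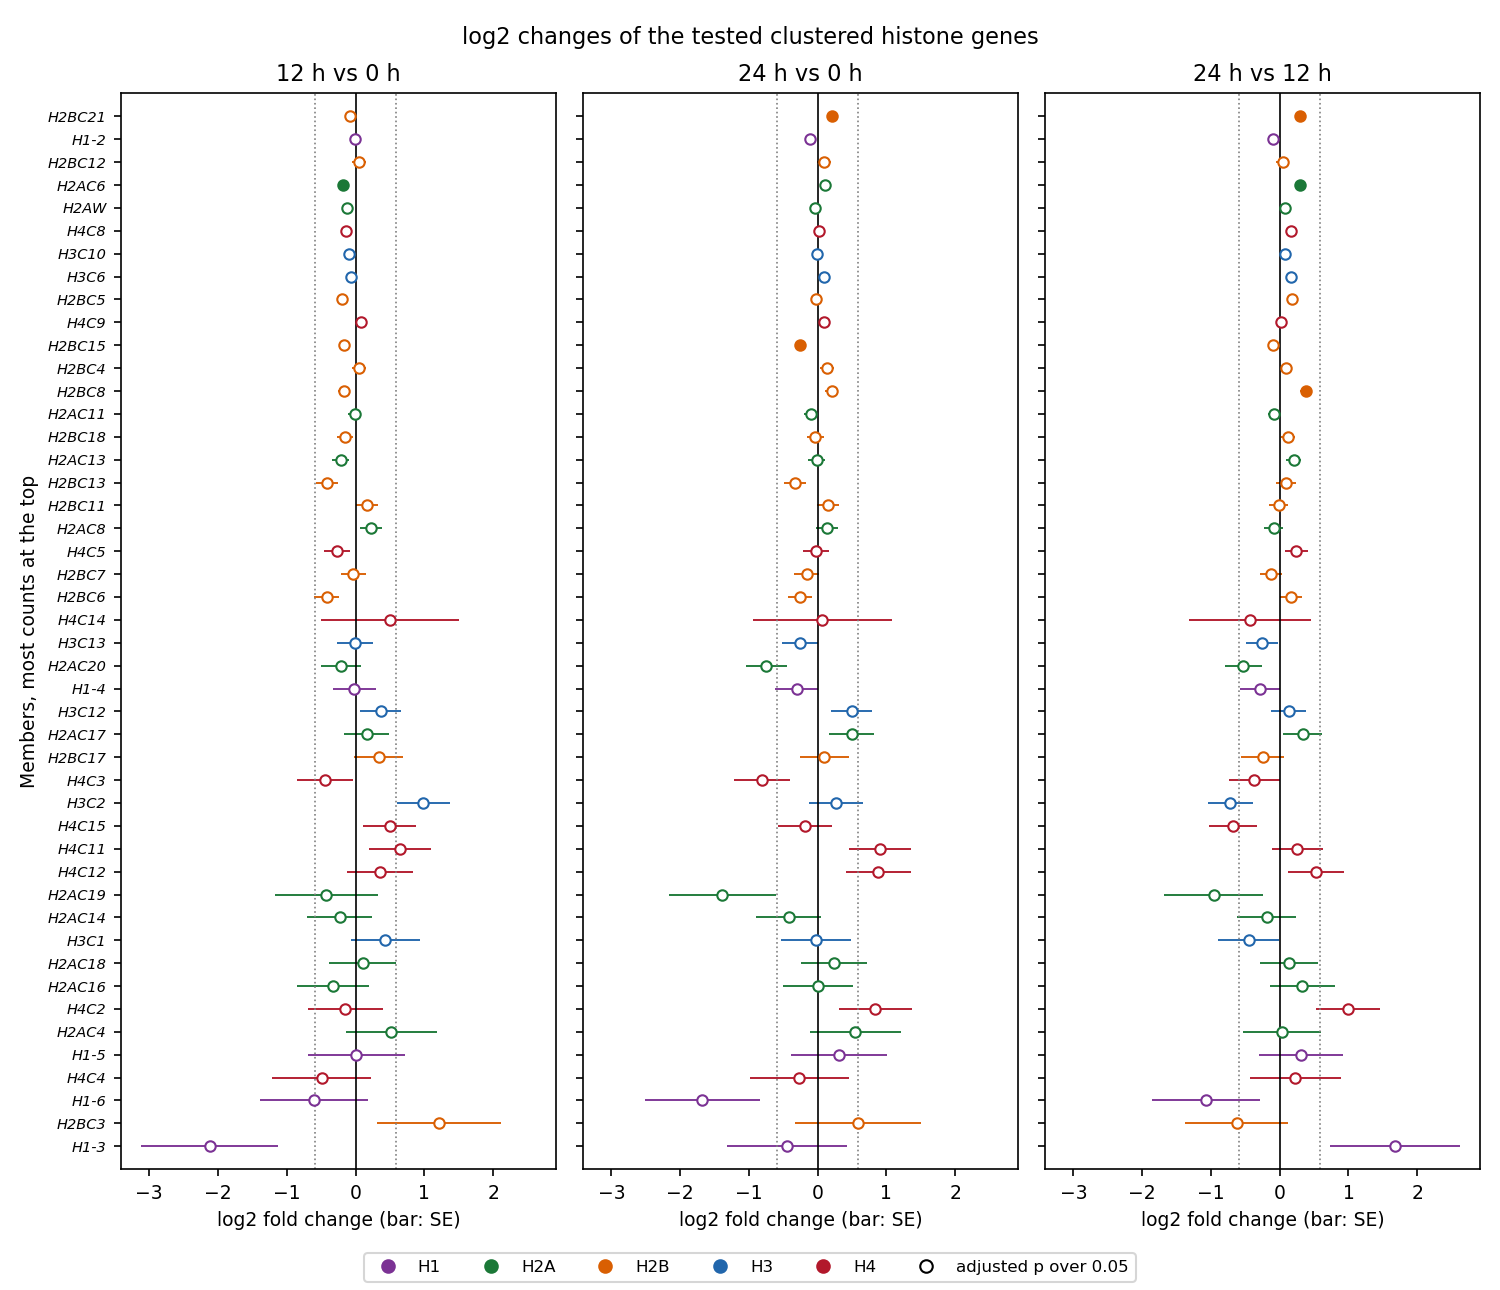
log2 fold change ± SE (x) of the 46 tested members (y, ordered by counts) in the 3 comparisons, colored by family and filled where the adjusted p is at most 0.05, with dotted lines at 1.5-fold. Filled points number 1, 2 and 3 from left to right, and the SE widens toward the bottom, where members have few counts.

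The linker histone genes were dominated by H1-2, which encodes a widely expressed H1. It was at 80.8 and 83.8 CPM at 0 h, at 83.8, 81.0 and 79.5 at 12 h and at 75.3, 77.3 and 76.7 at 24 h. The 24 h libraries lay below all others. The log2 change was -0.11 between 24 h and 0 h (SE 0.048, adjusted p 0.138 by edgeR, within 0.0355 to 0.432) and -0.09 between 24 h and 12 h (SE 0.043, adjusted p 0.333). H1-4, at 0.804 ± 0.0672 CPM (SD, n = 2), and H1-5, at 0.147 ± 0.0329 CPM (SD, n = 2), at 0 h, had too few counts to resolve a 1.5-fold change, and H1-3 and H1-6 had fewer still.

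Several H2A and H2B genes with many counts did not pass. H2AW, an H2A gene outside both arrays, was at 42.65 ± 3.45 CPM at 0 h (SD, n = 2), 39.33 ± 2.14 at 12 h and 41.67 ± 2.12 at 24 h (SD, n = 3 each). Against 0 h its edgeR adjusted p was 0.253 at 12 h and 0.79 at 24 h. H2BC12 was at 49.63 ± 1.86, 51.27 ± 4.38 and 52.84 ± 7.34 CPM in the same order, with overlapping libraries in each comparison. H2AC11 had log2 changes of -0.01, -0.10 and -0.09 in the order in which the comparisons were given above. H2AC20, the neighbour of H2BC21, was at 1.17 and 0.770 CPM at 0 h, at 0.843, 0.987 and 0.687 at 12 h and at 0.758, 0.589 and 0.381 at 24 h. Its 24 h libraries lay below both time-0 libraries, with a log2 change of -0.74 (SE 0.30, adjusted p 0.0909). When 24 h replicate 1 was left out it was -0.99 (adjusted p 0.0495, range over the alternatives 0.0495 to 0.659), and without time-0 replicate 1 it was -0.41 (adjusted p 0.659).

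H3 genes gave 0 passed members in each comparison by edgeR. H3C6, at 20.8 and 21.4 CPM at 0 h, 20.6, 20.1 and 19.5 at 12 h and 21.6, 23.0 and 22.9 at 24 h, had groups that did not overlap in any comparison. Its log2 changes were small, at -0.07, 0.09 and 0.17 (adjusted p 0.587, 0.394 and 0.15). H3C10 had -0.09, -0.01 and 0.08, and H3C13, with a mean of 85.2 counts, -0.0043, -0.26 and -0.26. H3C2 had the largest H3 value, 0.99 at 12 h (SE 0.39, adjusted p 0.102), on a mean of 34.8 counts. Its levels were 0.318 and 0.248 CPM at 0 h, 0.700, 0.516 and 0.481 at 12 h and 0.396, 0.331 and 0.300 at 24 h, so the 12 h libraries lay above all others.

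H4 genes also gave 0 passed members in each comparison by edgeR. H4C8 had log2 changes of -0.14, 0.02 and 0.16 (adjusted p 0.18, 0.915 and 0.172), and 13.3% of its exon bases overlap a gene on the other strand. H4C9 had 0.07, 0.09 and 0.02, with adjusted p values of 0.653, 0.507 and 0.944. H4C5 had -0.27, -0.03 and 0.24, with SEs of 0.17 to 0.19. Its value at 12 h was 0.15 without time-0 replicate 1 and -0.56 without the other time-0 library, so its sign rested on 1 library. H4C14 stood apart through single libraries. It had 178 and 22 counts at 0 h, 131, 150 and 145 at 12 h and 165, 22 and 128 at 24 h, so the unnumbered time-0 library and 24 h replicate 2 were low. Its log2 change of 0.50 at 12 h had an SE of 1.0, and it was 2.47 without time-0 replicate 1 and -0.26 without the other time-0 library.

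Near-identical copies limit some of these values. In 32 members no 150-base window of a transcript was found in another gene, in 15 some were, and in 9 more than 50% were. H4C14 shares 92.2% of its windows with H4C15, which had 34 and 25 counts at 0 h, 48, 32 and 50 at 12 h and 29, 37 and 19 at 24 h. Their summed counts were low in the same libraries, at 47 and 59 against 147 to 212 in the other libraries. H2AC18 and H2AC19 share 100.0% and 99.7% of their windows, encode the same protein and had 17 to 30 and 10 to 63 counts. H2AC19 was high in the unnumbered time-0 library (63 counts) and in 12 h replicate 1 (56 counts). Its log2 change of -1.38 at 24 h (adjusted p 0.288) was -2.23 without time-0 replicate 1 (adjusted p 0.031). H4C11 and H4C12, which also share most windows, summed to 0.466 and 0.440 CPM at 0 h and 0.978, 0.931 and 0.613 CPM at 24 h. H2AC17 overlaps H3C12 on the same strand over 71.0% of its exon bases, and 40.3% of the exon bases of H3C12 lie in that overlap. Reads there cannot be assigned to 1 of these 2 genes.

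Many H2A and H2B genes are arranged head to head over a shared promoter region. Among the members of all families, 7 head-to-head pairs had starts 218 to 318 bases apart. H2BC17 is in 2 of them, with H2AC17 and with H3C12. H3C12 is an H3 gene whose interval overlaps that of H2AC17 on the same strand, so these pairs are not separate. Values within a pair were close in some cases and apart in others. H2BC4 and H2AC6 had 0.14 (SE 0.10) and 0.11 (SE 0.053) at 24 h against 0 h. H3C12 and H2BC17 had 0.37 (SE 0.30) and 0.34 (SE 0.36) at 12 h, on means of 59.0 and 40.5 counts. With such SEs the closeness of these values says little. H2BC21 had a log2 change of 0.21 at 24 h against 0 h while H2AC20, 265 bases away, had -0.74. Between 24 h and 12 h H2BC8 had 0.38 and H2AC8 -0.09, while H2AC6 had 0.29 and H2BC4 0.09. H2BC13 and H2AC13 had -0.42 and -0.22 at 12 h. The difference within pairs was not tested.

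The factors that make, process and store histones were then compared by lists. The list of histone gene transcription and 3′ end cleavage had 14 genes, of which 2 rose and 0 fell at 12 h and 2 rose and 0 fell at 24 h against 0 h by edgeR, with medians of 0.03 and 0.10. That is 14.3% of the list each time, near the 11.6% and 16.3% of all genes that passed in these comparisons. SLBP, the stem-loop binding protein, went from 41.38 ± 2.06 CPM (SD, n = 2) to 49.31 ± 2.22 and 53.85 ± 1.99 CPM (SD, n = 3 each), log2 changes of 0.25 (SE 0.057, adjusted p 0.00262) and 0.38 (SE 0.057, adjusted p 7.83e-06). CASP8AP2, a scaffold of the histone locus body, rose at 24 h by 0.40 (SE 0.099, adjusted p 0.00398). NPAT, the coactivator of histone gene transcription, had 0.02 and 0.16 (adjusted p 0.925 and 0.118). Of 5 histone mRNA decay genes UPF1, an RNA helicase, rose in both comparisons, by 0.15 and 0.14 (adjusted p 0.0455 and 0.0369), and TUT7, a terminal uridylyltransferase, had -0.14 and -0.06 and did not pass.

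**Figure D5:**
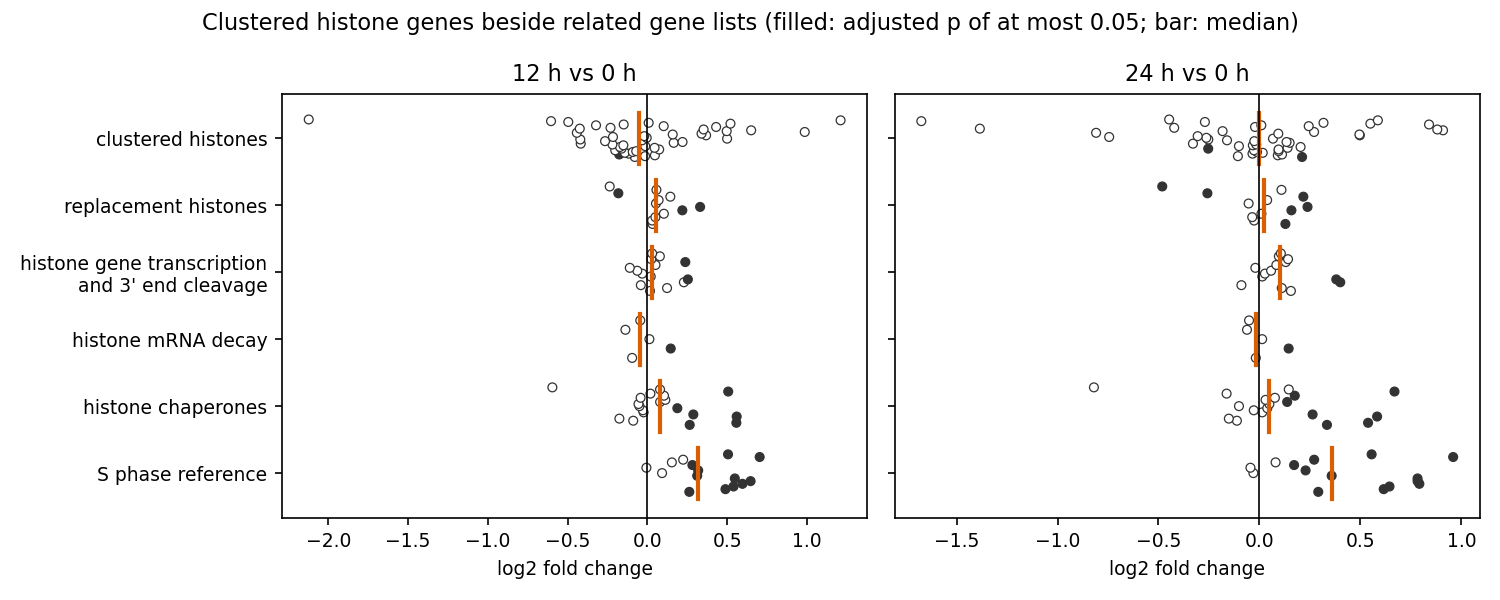
log2 fold change (x) at 12 h and 24 h against 0 h of the clustered histone genes and of 5 related lists (y), with 1 point per tested gene, filled where the adjusted p is at most 0.05, and an orange bar at the median. The median of the S phase list lies at 0.32 and 0.36, and that of the clustered histones at -0.05 and -0.0015.

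Of 19 histone chaperones 6 rose at 12 h (31.6%) and 7 at 24 h (36.8%), and none fell by edgeR. TONSL, which binds newly laid H4, rose by 0.51 and 0.67 (SE 0.082 each), and ASF1B, an H3-H4 chaperone of dividing cells, by 0.56 and 0.58 (SE 0.080 each). In the S phase list of 15 genes 11 rose at 12 h (73.3%) and 12 at 24 h (80.0%) and none fell, with medians of 0.32 and 0.36. MCM5 and MCM6, subunits of the replicative helicase, rose by 0.65 and 0.55 at 12 h and by 0.78 each at 24 h. The clustered histones had 1 and 2 of 46 past the test in the same comparisons. Of these 46 members, 23 had a mean under 100 counts, and 0 of those passed. Among the 23 with a mean of at least 100 counts, 4.35% and 8.7% passed. Of all genes with such a mean, 17.5% and 24.0% did. The lists were not matched to the members by counts. Of 12 replacement histones, which are not made in S phase alone, 2 rose and 1 fell at 12 h (25.0% passed). At 24 h 4 rose and 2 fell (50%). CENPA, the centromeric H3, fell at 24 h by 0.48 on the log2 scale (SE 0.087, adjusted p 0.000117). Between 24 h and 12 h 1 of the 65 list genes passed by edgeR, where 2.72% of all genes did. It was MCM6, with 0.23 (SE 0.057, adjusted p 0.0159). The differences between the lists and the clustered histones were not tested.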

How the data were processed

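Libraries were Illumina TruSeq mRNA libraries of total RNA, sequenced as paired reads. Each deposited value is an integer count of reads for 1 gene and library, not normalized. The study's methods state that the authors trimmed reads with Cutadapt, checked them with FastQC 0.11.9 (version also in the submitters' processing notes), aligned them to GRCh38 with STAR, counted them on GENCODE genes with featureCounts, and left out a time-0 library for quality. How featureCounts treated strand and reads with several matches is not given in the sources used here, so overlapping or near-identical genes may share reads. The second time-0 column carries a number that no time-0 label has and was used without one, except in the block.

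Genes were tested with edgeR 4.0.16 in R 4.3.3 (quasi-likelihood F test, robust, TMM, filterByExpr, 1 coefficient per time point over all 8 libraries) and adjusted over 21071 genes by Benjamini-Hochberg. H2AC21 was removed by the filter. Thresholds were an adjusted p of 0.05 and a fold of 1.5. SEs come from the log2 change and F, and 95% intervals are normal. Gene models, stem-loops and windows were read from GENCODE 44 on GRCh38. Of the 36474 genes, 30996 had the same versioned identifier there, all with equal coordinates, and so did 27 of the 47 members. For the other members, among them H2BC21, H2BC8 and H2BC15, these features come from a model that can differ from the counted one. The code was tested on simulated data.

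Alternatives were RLE and upper-quartile scaling, no filter, DESeq2 1.42.0, the compared time points alone, GC and length correction, a replicate block and leaving out each library. Named members are the 3 most abundant per family, the 5 with the smallest p per comparison, any called at 1.5-fold, and the largest and smallest change among those with at least 100 counts. Related genes named are the 2 with the smallest p at 24 h per list, with SLBP and NPAT. One gene that this rule names and 1 marker are not reported here. Other members are named for their copies, neighbours or place by counts. The members and lists were chosen with earlier results of these data known.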

Additional observations from a re-analysis of the deposited data

How the results depend on the processing

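Over the named members and comparisons, 958 of 1034 alternative log2 changes kept direction and side of the threshold, 15 lost an adjusted p of 0.05, 10 gained it, 51 uncalled values changed sign and 0 called values reversed. All 47 member medians and 9 summed ratios moved by less than the spread between replicates. The count of members at an adjusted p of 0.05 was 0 at 12 h in the fit to the compared time points and 5 between 24 h and 12 h after GC and length correction, which added H2BC5 and H4C8 (adjusted p 0.012 and 0.0336, within 0.012 to 0.474 and 0.0336 to 0.619). Leaving out each library gave 0 to 4 members at 12 h, 1 to 3 at 24 h and 2 to 3 between them, and at 1.5-fold 0 to 1 (H2BC13) and 0 to 1 (H2AC19 without time-0 replicate 1, H2AC20 without 24 h replicate 1) against 0 h. Without the low-count filter 1 member (H2AC19) was called at 24 h. The cause was not tested.

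Same-numbered libraries at 12 h and 24 h correlated at 0.10, 0.028 and 0.026 in their deviations, so the numbers were not taken as pairs. Between 24 h and 12 h the replicate block gave 3 members. Against 0 h the block was added after the data were seen, because the second time-0 library is number 3 by its column and 2 by the labels. It gave 0 members at 12 h under either number, where H2AC6 had adjusted p values of 0.0606 and 0.08 (0.0115 to 0.385 over the alternatives). At 24 h it gave 2 members as number 3 and 1 as number 2, where H2BC15 had 0.0693 (0.00459 to 0.615). With counts under 100 per library, changes of 1.5-fold were mostly not detectable.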

Other observations

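H2AX, the replacement H2A that marks DNA breaks when phosphorylated, was chosen after its values were seen. It was the 1 gene of the 12 replacement histones with the stem-loop pattern after its stop codon. Time-0 libraries held 103 and 115 CPM of it, 12 h libraries 141, 132 and 139, and 24 h libraries 127, 124 and 134, so both later groups lay above time 0. Against 0 h it rose by 0.33 at 12 h with an SE of 0.052 (edgeR adjusted p 3.45e-05) and by 0.24 at 24 h with an SE of 0.051 (edgeR adjusted p 0.00106).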
